A study of Mus musculus with 42 samples.

Results

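The liver makes bile acids from cholesterol, and 10 enzymes of this pathway were followed across diet and treatment in the livers of APOE*3-Leiden mice. The enzymes were Cyp7a1, Cyp8b1, Cyp27a1, Cyp7b1, Hsd3b7, Akr1d1, Amacr, Slc27a5, Baat and Cyp2c70. They were chosen by name from the pathway and not by a rule on their values, though earlier results of these data were known. They were 10 of the 54446 genes in the deposited count table. Counts were present for 9 of the 10, and these 9 passed the filter on low counts.

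Liver RNA of 42 female mice was sequenced at week 32, with 1 library per mouse and with all mice carrying the human APOE*3-Leiden transgene, which slows the clearance of lipoprotein remnants. The chow group (n = 10) was kept on maintenance chow. The WTD group (n = 16) ate a Western-type diet with 15% cocoa butter, 40.5% sucrose and 1% cholesterol, started at 8 to 14 weeks of age with a run-in of 3 weeks. The WTD + atorvastatin group (n = 16) ate the same diet mixed with the HMG-CoA reductase inhibitor atorvastatin at 3.0 mg/kg/day, raised to 4.5 mg/kg/day at week 5. From week 22 both WTD-fed groups, and not the chow group, also received 0.05% sodium cholate, itself a bile acid, for the last 10 weeks. The diet, its cholesterol and the added bile acid therefore cannot be told apart in any comparison with chow, whereas both WTD-fed groups shared them. Every chow mouse was named AZ# and every WTD-fed mouse Gen#. Only the WTD-fed groups were matched to each other, and no age was given for the chow mice. Any difference that goes with these names likewise cannot be told apart from diet.

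Bile acid synthesis begins with 2 routes. In the classic route Cyp7a1 hydroxylates cholesterol itself, while in the alternative route Cyp27a1 oxidizes the sterol side chain first and Cyp7b1 hydroxylates the oxysterol. Hsd3b7 and Akr1d1 then alter the ring system, Cyp8b1 adds the hydroxyl group that sets cholic acid apart, Cyp2c70 makes the muricholic acids typical of rodents, and Amacr, Slc27a5 and Baat finish the side chain and join it to taurine or glycine. The pathway is known for negative feedback, in which bile acids act through the receptor FXR in liver and gut to lower the genes of the first steps.

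The libraries held 15661381 to 36224054 gene counts each, so that each of the 9 counted enzymes rested on at least 69 counts in every mouse. Levels are given as CPM, counts divided by the library size as scaled by the TMM method of edgeR and multiplied by 1e6, and where genes are compared with each other as CPM per kilobase of exon. Fold changes are on the log2 scale with their standard error, from the quasi-likelihood test of edgeR over 15574 genes in all 42 mice, with Benjamini-Hochberg adjusted p values. An adjusted p under 0.01 was required for a call. In 8 libraries, 3 of chow, 4 of WTD and 1 of treated mice, over 20% of genes at 1 to 2 CPM had no count at all. One WTD mouse, Gen#20, stood apart from its group. Its TMM factor was 0.915 where the other WTD mice had 1.06 to 1.22, and its summed level of hepatocyte markers was 121085 CPM where the next WTD mouse had 87011 CPM. The albumin gene Alb was the largest part of this sum, with a median of 48528 CPM on WTD where the sum had a median of 80817 CPM. The fold changes of the enzymes were refitted without the 8 libraries and without Gen#20, and the ratios without the 8 libraries. The main changes are given below. Fold changes of the other gene lists and the correlations were not examined without these libraries, nor were the ratios without Gen#20.

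In mice on the WTD without treatment, 8 of the 9 counted enzymes fell against chow and none rose. Over all genes tested, 33.5% were called in this comparison and 16.0% were called lower. Of those calls 52.2% were higher, a share that was 82.4% when libraries were scaled by size only. The median log2 fold change of the 9 enzymes was −0.97, against 0.03 for all genes tested. Cyp8b1 showed the largest fall, at 4.79-fold, followed by Cyp7a1 and Akr1d1, and Cyp2c70 was the one enzyme that did not pass the test. The WTD and chow mice did not overlap at all in 4 enzymes, Cyp8b1, Cyp27a1, Akr1d1 and Baat, where 2.43% of all genes tested had every WTD mouse below every chow mouse and 3.40% had every WTD mouse above.

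With atorvastatin, 7 of the 9 enzymes were higher than on WTD alone and none was lower. Of all genes tested, 7.10% were called in this comparison and 4.84% were called higher. The median log2 fold change was 0.34 for the enzymes and 0.00 for all genes tested. The rises were between 1.21 and 2.01-fold. In none of the 9 enzymes did treated and untreated mice separate without overlap, and such a separation was found in 0.00642% of all genes with the treated mice higher and in 0 with them lower. Against chow the treated mice still had 7 of 9 enzymes lower, with 25.0% of all genes called and 10.7% called lower, and a median of −0.69. In that comparison Cyp27a1 and Baat did not overlap, as was the case for 1.50% of all genes in that direction and 2.88% in the other. Each group entered 2 of the 3 comparisons, so the 3 sets of fold changes are not independent.

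**Figure D1:**
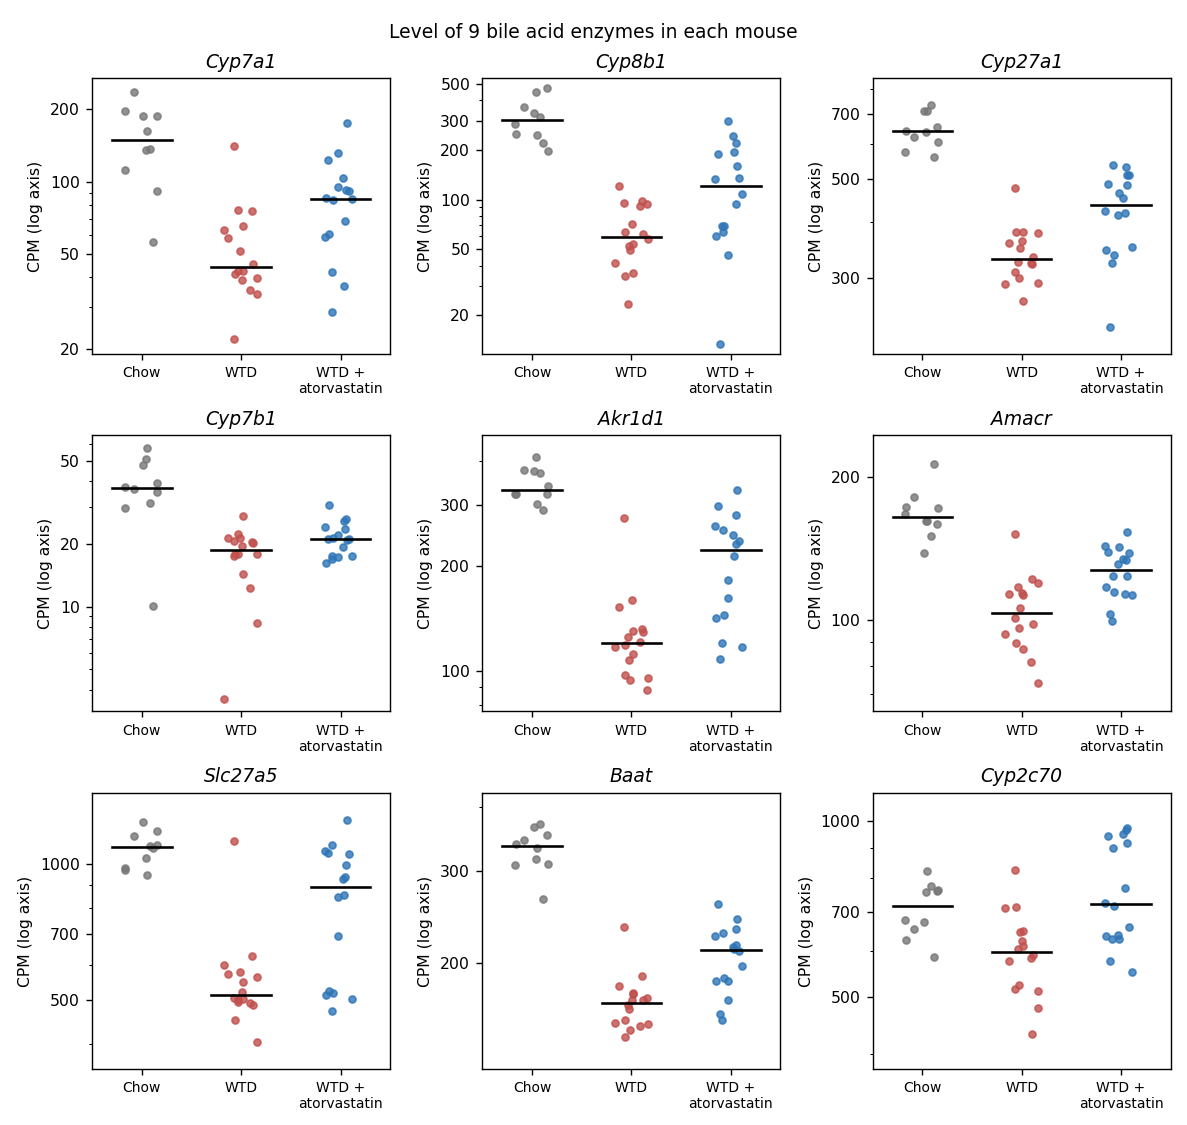
Level of 9 bile acid enzymes in each of 42 mice, in CPM on log axes that differ between panels, with 1 point per mouse and a bar at the group median for chow (n = 10), WTD (n = 16) and WTD + atorvastatin (n = 16). The WTD points lie below all chow points for Cyp8b1, Cyp27a1, Akr1d1 and Baat, and the 16 treated mice range from 475 to 1250.1 CPM in Slc27a5.

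The entry enzyme of the classic route, Cyp7a1 (ENSMUSG00000028240, GRCm38 chromosome 4, 6265612 to 6275633, minus strand), is regarded as rate-limiting for bile acid synthesis. On chow it had a lowest, median and highest level of 55.8, 149 and 235 CPM, on WTD 22.0, 44.0 and 141 CPM, and on WTD + atorvastatin 28.7, 84.9 and 176 CPM. All 16 WTD mice lay below the chow median, but the ranges overlapped, in part through Gen#20, which held the highest WTD value while the next had 76.4 CPM. The fall on WTD was −1.46 ± 0.25 on the log2 scale (adjusted p = 5.85e-06). The treated mice were at 0.64 ± 0.22 above WTD, with 13 of 16 above the WTD median, and this did not pass the test (adjusted p = 0.051). Without Gen#20 it did, at 0.80 ± 0.21 (adjusted p = 0.0051). Against chow the treated mice were lower by −0.82 ± 0.25 (adjusted p = 0.0093), a call that 25 of 42 fits with 1 mouse left out did not keep (adjusted p up to 0.026).

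The sterol 12α-hydroxylase Cyp8b1 (ENSMUSG00000050445, chromosome 9, 121914356 to 121916305, minus strand, a gene of a single exon) decides how much cholic acid is made. Its levels were 195, 302 and 473 CPM on chow, 23.3, 59.7 and 120.3 CPM on WTD and 13.4, 121 and 299 CPM with atorvastatin. The groups on chow and WTD were apart, and the treated group, which reached from below the lowest WTD mouse into the chow range, was the most spread relative to its mean. Its coefficient of variation was 61.3% with atorvastatin, 42.0% on WTD and 29.9% on chow. The lowest treated mouse was Gen#28 at 13.4 CPM, and the next lowest had 46.5 CPM. Cyp8b1 fell by 2.26 ± 0.30 on the log2 scale on WTD, a 4.79-fold difference (adjusted p = 5.66e-08), and it was called in all 17 other ways of processing and with any 1 mouse left out. With atorvastatin it was 2.01-fold higher than on WTD, at 1.00 ± 0.27, with 14 of 16 mice above the WTD median. That adjusted p of 0.0096 was just inside the threshold, and 27 of 42 fits with 1 mouse left out put it outside (adjusted p up to 0.023). Without the 8 libraries that lacked weak genes it was 0.81 ± 0.31 (adjusted p = 0.077). Treated mice remained below chow by −1.25 ± 0.30 (adjusted p = 0.00096).

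Of the alternative route, Cyp27a1 (ENSMUSG00000026170, chromosome 1, 74713574 to 74737892, plus strand) is the mitochondrial sterol 27-hydroxylase. It had 561, 642 and 735 CPM on chow, 266, 330.4 and 477 CPM on WTD and 232, 438 and 539 CPM with atorvastatin. No mouse of either WTD-fed group reached the lowest chow mouse. The fall was −0.92 ± 0.09 on WTD (adjusted p = 6.00e-12) and −0.60 ± 0.09 in treated mice (adjusted p = 8.70e-07). Treatment raised it by 0.33 ± 0.08 over WTD (adjusted p = 0.0050), and the call was lost without Gen#11, Gen#27, Gen#30, Gen#35 or Gen#37, with an adjusted p of up to 0.012.

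The oxysterol 7α-hydroxylase Cyp7b1 (ENSMUSG00000039519, chromosome 3, 18071950 to 18243338, minus strand) was the lowest of the 9. It had 10.1, 37.1 and 57.6 CPM on chow, 3.61, 18.7 and 27.1 CPM on WTD and 16.2, 21.1 and 30.6 CPM with atorvastatin. The lowest chow mouse was AZ#5, with the next at 29.6 CPM, and the lowest WTD mouse was Gen#13, with the next at 8.33 CPM. Cyp7b1 was lower on WTD by −1.09 ± 0.19 (adjusted p = 3.59e-06) and in treated mice by −0.82 ± 0.19 (adjusted p = 0.00046). Between treated mice and WTD the difference was 0.27 ± 0.17 (adjusted p = 0.34). After group means were removed, 35 of the 36 pairs of enzymes had a positive Pearson r of log2 CPM over the 42 mice, with a median of 0.45, and the exception was Cyp7b1 with Amacr at −0.07. These correlations are descriptive, since all values of a mouse share its library.

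Akr1d1 (ENSMUSG00000038641, chromosome 6, 37530173 to 37568815, plus strand), which reduces the double bond of the steroid ring, had 289, 331 and 411 CPM on chow. On WTD it had 88.1, 120.0 and 275 CPM, the highest being Gen#20 and the next 160.0 CPM, and with atorvastatin 109, 222 and 329 CPM. It fell by 1.41 ± 0.16 on WTD (adjusted p = 6.02e-10) and rose by 0.69 ± 0.14 with treatment (adjusted p = 0.00071), with 14 of 16 treated mice above the WTD median. It was still −0.72 ± 0.16 below chow in treated mice (adjusted p = 0.00033). Each of these calls held with any 1 mouse left out.

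Hsd3b7 (ENSMUSG00000042289, chromosome 7, 127800604 to 127803802, plus strand), the ring dehydrogenase that acts before Akr1d1, had 0 counts in all 42 mice. A count of 0 would allow 3 counts per library, or 0.078 to 0.20 CPM, for counting error only. The gene lies wholly inside the gene model Gm49388 on the same strand (127785608 to 127803802), which itself had 21 counts over all mice, and HTSeq-count sets aside read pairs that fall on 2 genes. Such ambiguous pairs were 5.43% to 6.57% of the read pairs of each library. Per3, which lies inside Camta1 in the same manner, was also listed at 0. The level of Hsd3b7 could therefore not be read from these counts.

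Amacr (ENSMUSG00000022244, chromosome 15, 10981756 to 10996626, plus strand), the racemase of the sterol side chain, had 138, 165 and 213 CPM on chow, 73.8, 104 and 152 CPM on WTD and 99.3, 128 and 153 CPM with atorvastatin. It changed least among the enzymes that were called on WTD, at −0.68 ± 0.08 (adjusted p = 1.46e-09). With treatment it was 0.27 ± 0.07 higher (adjusted p = 0.0090), a call that 20 of 42 fits with 1 mouse left out did not keep (adjusted p up to 0.020). Treated mice were −0.41 ± 0.08 below chow (adjusted p = 9.46e-05).

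The bile acid CoA ligase Slc27a5 (ENSMUSG00000030382, chromosome 7, 12988346 to 12998192, minus strand) activates bile acids for conjugation. It had 945, 1092 and 1241 CPM on chow, 406, 514 and 1128 CPM on WTD and 475, 892 and 1250.1 CPM with atorvastatin. The WTD mice were close together except for Gen#20, since the next highest had 627 CPM. In the treated group 5 mice, Gen#22 to Gen#25 and Gen#28, lay between 475 and 524 CPM, a level usual for WTD, and the other mice lay between 695 and 1250.1 CPM, up to the level of chow. Slc27a5 fell by 0.94 ± 0.14 on WTD (adjusted p = 2.49e-07) and rose by 0.57 ± 0.13 with treatment (adjusted p = 0.0012), both also without Gen#20 (−1.04 ± 0.12 and 0.67 ± 0.11). In treated mice against chow it was at −0.37 ± 0.14, which did not pass the test (adjusted p = 0.035).

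Those 5 treated mice were also the 5 lowest treated mice in Akr1d1 and in Cyp27a1, and 4 of them were among the 5 lowest in Amacr and Cyp2c70. For Cyp8b1, Cyp7b1 and Baat it was 3 of 5, and for Cyp7a1 2 of 5. Their summed level of hepatocyte markers, of which Alb was the largest part, was 73471 to 96539 CPM, where the other treated mice had 99531 to 144564 CPM. These mice are described by their values and were not compared as a group.

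The conjugating enzyme Baat (ENSMUSG00000039653, chromosome 4, 49489422 to 49506557, minus strand), which joins the activated bile acid to taurine or glycine, was among the steadiest of the enzymes within a group. It had 265, 336 and 369.5 CPM on chow, 144, 167 and 234 CPM on WTD and 155, 212 and 259 CPM with atorvastatin. All WTD-fed mice, treated or not, were below the lowest chow mouse. Its fall on WTD was −0.97 ± 0.08 (adjusted p = 1.06e-15), the smallest adjusted p of the 9, and treated mice were −0.69 ± 0.08 below chow (adjusted p = 1.54e-10). Treatment raised it by 0.28 ± 0.07 over WTD (adjusted p = 0.0024).

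Cyp2c70 (ENSMUSG00000060613, chromosome 19, 40153353 to 40187333, minus strand), which makes muricholic acids from chenodeoxycholic acid, differed from the other enzymes. It had 584, 716 and 822 CPM on chow, 433, 596 and 825 CPM on WTD and 552, 719.9 and 971 CPM with atorvastatin. All 3 ranges overlapped widely. The difference on WTD was −0.24 ± 0.09 and did not pass the test (adjusted p = 0.035), and its sign turned when libraries were scaled by size only (0.07, adjusted p = 0.49). With treatment Cyp2c70 rose by 0.34 ± 0.08 over WTD (adjusted p = 0.0031), and treated mice were at 0.10 ± 0.10 from chow (adjusted p = 0.44), with 8 of 16 above and 8 below the chow median.

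**Figure D2:**
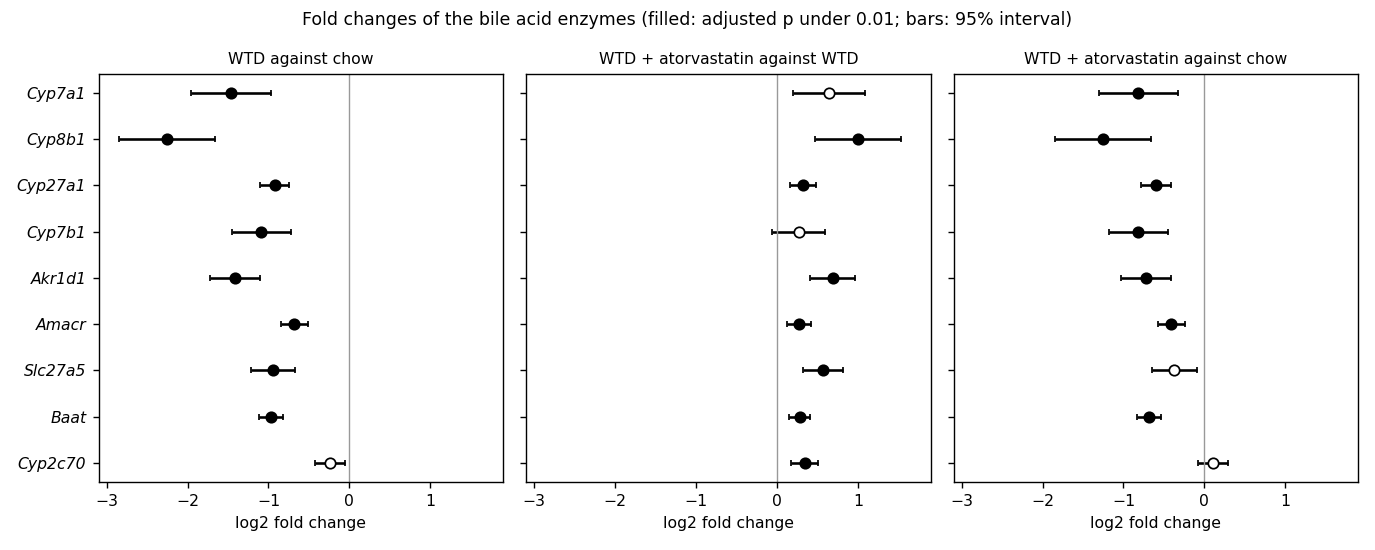
Log2 fold change of the 9 counted enzymes in the 3 comparisons, as points with 95% intervals, filled where the adjusted p was under 0.01. On WTD against chow all points lie below 0, with Cyp8b1 farthest at −2.26, and with atorvastatin against WTD all lie above 0, with Cyp8b1 at 1.00.

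The promoters of Cyp8b1 and Cyp2c70 are shown since they belong to the enzyme with the largest fall on WTD and to the enzyme that did not pass the test. Both come from RefSeq on GRCm38.p6, as 250 bases before the start site and 50 after it, at chr9:121916256-121916555 and chr19:40187237-40187536, both on the minus strand and printed in the direction of transcription. Capitals mark the letters CAAAGTCCA, a core sequence bound by the nuclear receptor HNF4A, and the TATAAA box (TTTATA on the other strand).
Cyp8b1: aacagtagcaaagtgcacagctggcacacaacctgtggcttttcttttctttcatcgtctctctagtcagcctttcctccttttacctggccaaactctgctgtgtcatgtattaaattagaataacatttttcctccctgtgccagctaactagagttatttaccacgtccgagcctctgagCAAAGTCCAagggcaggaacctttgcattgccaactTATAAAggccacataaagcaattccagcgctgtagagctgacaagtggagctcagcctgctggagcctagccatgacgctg
Cyp2c70: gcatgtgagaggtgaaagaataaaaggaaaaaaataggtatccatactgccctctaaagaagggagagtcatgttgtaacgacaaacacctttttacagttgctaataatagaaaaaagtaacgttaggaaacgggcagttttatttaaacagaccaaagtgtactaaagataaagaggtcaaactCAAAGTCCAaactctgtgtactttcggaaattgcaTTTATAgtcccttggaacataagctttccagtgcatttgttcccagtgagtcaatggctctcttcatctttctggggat

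Both promoters held CAAAGTCCA on the same strand, starting 67 bases before the start site in Cyp8b1 and 64 bases before it in Cyp2c70, and both had the TATA letters 31 and 29 bases before it. CAAAGTCCA was present, on either strand, in 0.475% of the 32851 promoters of the table and TATAAA in 13.6%. Akr1d1 is shown as the third of the large falls, at chr6:37529923-37530222 on the plus strand, with the nuclear receptor half-site AGGTCA in capitals, here as TGACCT on the other strand, 232 and 210 bases before the start site.
Akr1d1: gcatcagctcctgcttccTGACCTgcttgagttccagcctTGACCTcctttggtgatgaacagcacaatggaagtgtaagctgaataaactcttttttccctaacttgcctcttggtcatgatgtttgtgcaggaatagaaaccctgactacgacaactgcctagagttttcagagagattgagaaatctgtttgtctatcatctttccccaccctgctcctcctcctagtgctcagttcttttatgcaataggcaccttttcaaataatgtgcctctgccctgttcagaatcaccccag

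The half-site AGGTCA was found in 16.3% of all promoters, and Cyp2c70 held it too. RefSeq promoters were found for 5 of the 10 enzymes, also Cyp27a1 and Hsd3b7. In all, 16 motifs were searched on both strands, several of which contain one another. AAAGTCCA, which lies within CAAAGTCCA, was found in the same pair of promoters and in 1.25% of all, and CACCCCA was found in Akr1d1 and in 7.62% of all. None of the 5 promoters held AAGGTCA (4.72% of all), CAAGGTCA (1.56%) or CAAAGGTCA (0.478%), which contain the half-site, or its direct repeat (0.0396%) or inverted repeat (0.00913%) with a spacer of 1 base. Nor did they hold the E-box CACGTG (7.15%), TTATGTAA (0.938%), TTACGTAA (0.119%), ATTGCGCAA (0.0487%), the HNF1 half-site GTTAAT (7.10%) or its palindrome (0.00913%). These matches describe the letters only.

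Per length, the order of the enzymes shifted with diet. On chow Slc27a5 was highest at 443 ± 39.9 CPM per kilobase (SD, n = 10), followed by Cyp2c70 at 358 ± 38.5, Cyp27a1 at 298 ± 27.3, Baat at 170.2 ± 16.2, Cyp8b1 at 161 ± 48.0, Akr1d1 at 118 ± 13.4, Amacr at 64.4 ± 7.70, Cyp7a1 at 35.9 ± 13.0 and Cyp7b1 at 17.4 ± 6.05. Baat and Cyp8b1 differed by less than the spread between mice. On WTD Cyp2c70 came first at 303 ± 49.6 CPM per kilobase (SD, n = 16), ahead of Slc27a5 at 230.3 ± 66.0, and Cyp8b1, at 33.5 ± 14.1, lay below Akr1d1 (44.4 ± 15.2) and Amacr (40.2 ± 7.30). Those 3 lay within each other's spread. With atorvastatin Cyp2c70 was again first, at 384 ± 77.8, and Cyp8b1 at 67.3 ± 41.3 stood next to Akr1d1 at 71.7 ± 23.9, which it did not differ from beyond the spread.

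The balance between the enzymes was also read as the log2 ratio of the counts of a pair within each mouse, in which library size and scaling cancel. Cyp8b1 relative to Cyp7b1 was 3.12 ± 0.64 on chow (SD, n = 10), 1.88 ± 0.91 on WTD and 2.31 ± 1.16 with atorvastatin (SD, n = 16 each). For the ratios an adjusted p under 0.05 was required, not the 0.01 of the fold changes. The difference of −1.24 ± 0.30 (SE) between WTD and chow passed at 0.05 and not at 0.01 (two-sided permutation test, 100000 resamples, p = 0.0013, adjusted p = 0.016 over 12 tests), with 14 of 16 WTD mice below the chow median. It was −0.87 ± 0.28 without the 8 libraries that lacked weak genes (adjusted p = 0.10). Cyp8b1 relative to Cyp7a1 was −0.84 ± 0.32 lower on WTD than on chow (permutation test, p = 0.021, adjusted p = 0.12). Cyp7a1 relative to Cyp27a1 was lower by −0.56 ± 0.24 (permutation test, p = 0.030, adjusted p = 0.12) and, without the same 8 libraries, by −0.86 ± 0.21 (adjusted p = 0.036). Of the 12 tests, 1 had an adjusted p under 0.05, and no ratio passed between treated mice and WTD.

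**Figure D3:**
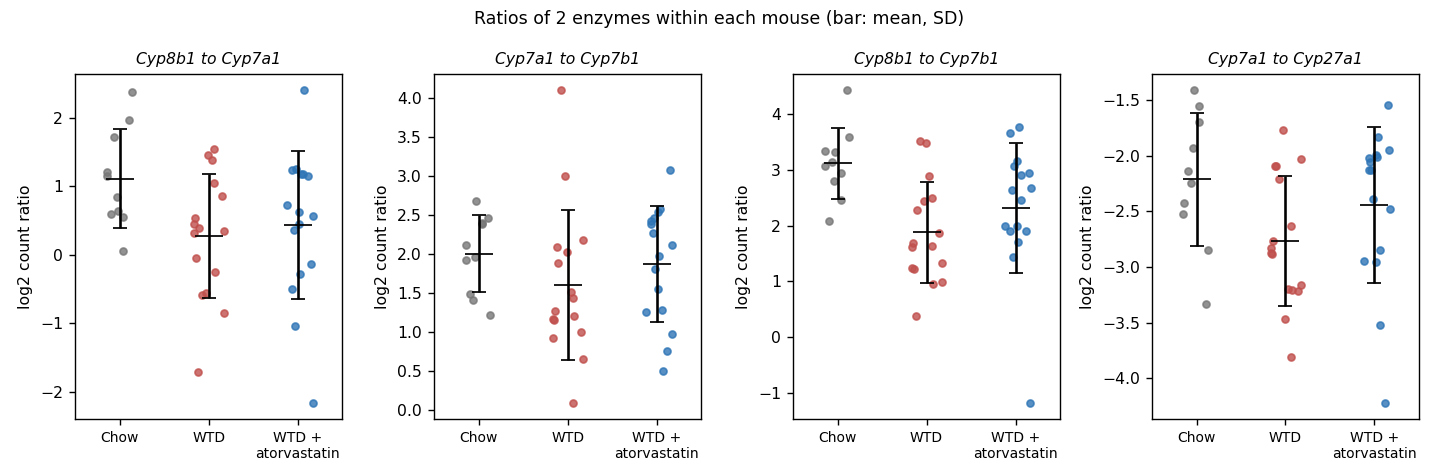
Log2 ratio of the counts of a pair of enzymes within each mouse, 1 point per mouse, with mean and SD for chow (n = 10), WTD (n = 16) and WTD + atorvastatin (n = 16). The mean of Cyp8b1 to Cyp7b1 falls from 3.12 on chow to 1.88 on WTD, and for each ratio the groups overlap.

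Within groups, 18 relations, between 2 enzymes or between an enzyme and a regulator, were tested as correlations of log2 CPM. Of these, 0 had an adjusted p under 0.05, with 4 at an unadjusted p under 0.05. Cyp7a1 and Cyp8b1, both known targets of the same feedback, had a Pearson r of 0.07 on chow, −0.03 on WTD and 0.37 with atorvastatin (permutation p = 0.84, 0.90 and 0.16). The smallest p was for Cyp7a1 with Dbp, a clock output factor known to act on the Cyp7a1 promoter, in WTD mice (n = 16), with r = 0.61 (permutation p = 0.0093, adjusted p = 0.17) and Spearman's rho = 0.66 (permutation p = 0.0071, adjusted p = 0.13). Without the 2 mice farthest from the median of Cyp7a1 it was 0.69. On chow it was −0.17 and with atorvastatin 0.15 (permutation p = 0.64 and 0.57). Cyp7a1 with Cyp7b1 had r = 0.72 on chow (n = 10, permutation p = 0.036, adjusted p = 0.22), and 0.18 without the 2 mice farthest from the median of Cyp7a1. For this pair r was −0.06 on WTD and −0.01 with atorvastatin (permutation p = 0.80 and 0.97). Cyp8b1 with the repressor Nr0b2 had r = 0.66 on chow (n = 10, permutation p = 0.036, adjusted p = 0.22) and −0.18 on WTD (permutation p = 0.51). On chow the r of this pair was 0.51 without the 2 mice farthest from the median of Cyp8b1 (permutation p = 0.19). With atorvastatin it was 0.50 (n = 16, permutation p = 0.049, adjusted p = 0.22), and 0.14 without the 2 mice farthest from the median of Cyp8b1.

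The genes most like Cyp8b1 over the 42 mice, by the Pearson r of log2 CPM after group means were removed among 9105 genes of at least 10 CPM, were the water channel Aqp8 (0.86), Rdh11 (0.83), the acetyl-CoA synthetase Acss2 (0.81), the fatty acid elongase Elovl5 (0.81) and Hfe2 (0.80). Those most like Cyp7a1 were Grik5 (0.67), Cmbl (0.66), the P450 reductase Por (0.65), Slc16a5 (0.64) and Tert (0.60). These are descriptions over mice that share sequencing, without a test.

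Among 12 regulators of the pathway, 6 fell on WTD against chow and none rose, where 33.5% of all genes were called and 16.0% were called lower. The bile acid receptor Nr1h4 (FXR) was lower by −0.84 ± 0.10 (adjusted p = 3.05e-10) and Fgfr4, the receptor for the gut hormone FGF15, by −0.54 ± 0.08 (adjusted p = 7.96e-08). Its co-receptor Klb was at −0.24 ± 0.15 (adjusted p = 0.21). The FXR target Nr0b2 (SHP), which represses Cyp7a1, was at −0.16 ± 0.18 (adjusted p = 0.49). Other regulators that fell were the xenobiotic receptor Nr1i2 (−0.44 ± 0.08), Mafg (−0.42 ± 0.08) and Prox1 (−0.42 ± 0.10), both repressors of bile acid genes, and Hnf4a (−0.31 ± 0.08), which activates them. Nr5a2 (LRH-1), at −0.32 ± 0.10, missed the threshold (adjusted p = 0.010), as did the oxysterol receptor Nr1h3 at −0.21 ± 0.08 (adjusted p = 0.024). Ppargc1a was at −0.19 ± 0.23 (adjusted p = 0.53) and Dbp at 1.26 ± 0.78 (adjusted p = 0.19).

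With atorvastatin 3 of the 12 regulators rose over WTD and none fell, where 7.10% of all genes were called and 4.84% were called higher. They were Klb at 0.76 ± 0.14 (adjusted p = 9.69e-05), Hnf4a at 0.33 ± 0.07 (adjusted p = 0.00064) and Fgfr4 at 0.30 ± 0.07 (adjusted p = 0.0015). Nr1h4 was at 0.30 ± 0.09 (adjusted p = 0.016), Mafg at 0.25 ± 0.07 (adjusted p = 0.013) and Nr0b2 at 0.10 ± 0.15 (adjusted p = 0.78). The other 6, Nr5a2 (0.19), Nr1h3 (0.05), Nr1i2 (0.11), Prox1 (0.08), Ppargc1a (0.34) and Dbp (0.56), did not pass the test either. Against chow, Nr1h4 (−0.55 ± 0.10), Nr1i2 (−0.33 ± 0.08) and Prox1 (−0.34 ± 0.10) were still lower in treated mice, Klb was higher (0.52 ± 0.16, adjusted p = 0.0071), and Hnf4a was at 0.02 ± 0.08 (adjusted p = 0.90). Mafg overlaps Sirt7 on the same strand, so its counts may be incomplete.

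Other enzymes of the pathway include those of the peroxisomal side chain steps. Of 11 measured, 7 were lower and 1 was higher on WTD, with a median of −0.59, where 16.0% of all genes were called lower and 17.5% higher. The acyl-CoA synthetase Slc27a2 fell by 0.88 ± 0.13 (adjusted p = 1.55e-07) and the steroid reductase Akr1c6 by 0.59 ± 0.06 (adjusted p = 3.31e-11). The exception was the sterol carrier Scp2 at 0.90, whose locus overlaps Podn on the same strand, so that its counts may be incomplete. With atorvastatin 2 of 11 were higher than on WTD, the peroxisomal transporter Abcd3 (0.40 ± 0.09, adjusted p = 0.0010) and Akr1c14 (0.43 ± 0.11, adjusted p = 0.0041). The median of the 11 was 0.20, and 4.84% of all genes were called higher. In treated mice against chow 4 were lower, among them Akr1c6 (−0.46 ± 0.06), and 1 was higher, Scp2 (0.97 ± 0.16). Of all genes, 10.7% were called lower and 14.2% higher in that comparison.

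**Figure D4:**
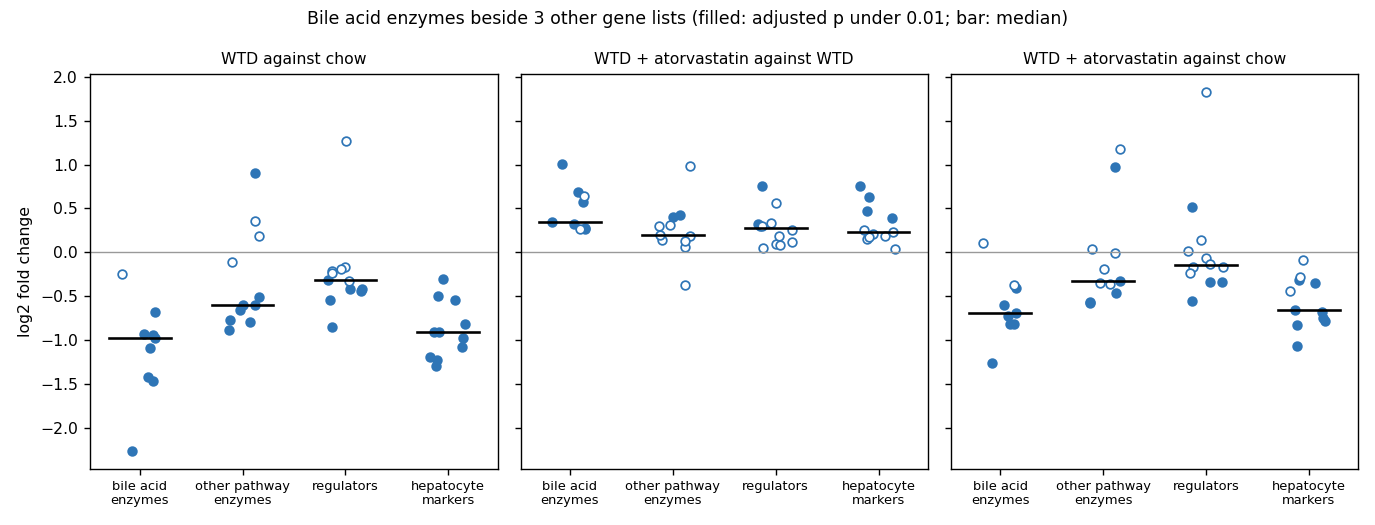
Log2 fold change of each tested gene of 4 lists in the 3 comparisons, filled where the adjusted p was under 0.01, with a bar at the median of the list. On WTD against chow the medians were −0.97 for the 9 enzymes, −0.59 for 11 other pathway enzymes, −0.32 for 12 regulators and −0.90 for 11 hepatocyte markers.

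Markers of hepatocytes, the cells that hold this pathway, differed between groups. Of 12 hepatocyte markers, 11 were tested and 11 fell on WTD against chow, with a median of −0.90 and a range from −1.29 to −0.30, while Trf, whose locus overlaps another gene model, was at 9 counts over all mice. Of all genes tested, 16.0% were called lower in this comparison. Ttr fell by 1.29 ± 0.10 (adjusted p = 1.93e-15) and Apoh by 1.08 ± 0.10 (adjusted p = 1.03e-13). Their summed level was 131511 to 183529 CPM on chow, 64478 to 121085 CPM on WTD and 73471 to 144564 CPM with atorvastatin. With treatment 4 of 11 rose, among them Alb (0.63 ± 0.10, adjusted p = 1.81e-05) and Tat (0.75 ± 0.14, adjusted p = 0.00020), with a median of 0.24, where 4.84% of all genes were called higher. Against chow 8 were still lower in treated mice, among them Apoa2 (−1.06 ± 0.12) and Rbp4 (−0.74 ± 0.09), with a median of −0.65, where 10.7% of all genes were called lower.

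The summed levels of macrophage, stellate cell and cholangiocyte markers were higher on WTD than on chow. The summed level of 8 macrophage markers was 402 to 631 CPM on chow, 2225 to 3897 CPM on WTD and 1605 to 2632 CPM with atorvastatin. For 7 stellate cell markers it was 346 to 577, 976 to 2437 and 866 to 2323 CPM, and for 6 cholangiocyte markers 77.2 to 156, 183 to 843 and 215 to 601 CPM. Lyz2 (median 1094 CPM on WTD) and Cd5l (940 CPM) were the largest parts of the macrophage sum (2570 CPM). Most of the cholangiocyte sum, with a median of 579 CPM on WTD, was Spp1, with a median of 511 CPM. On WTD 6 of 8 macrophage markers rose, among them Cd5l (3.12 ± 0.11) and Lyz2 (3.47 ± 0.15). So did 5 of 7 stellate cell markers, among them Col1a2 (3.43 ± 0.23) and Dcn (0.99 ± 0.08), and 6 of 6 cholangiocyte markers, among them Spp1 (2.47 ± 0.20) and Epcam (2.08 ± 0.22). Of all genes tested, 17.5% were called higher in this comparison. The stellate cell marker Acta2 went the other way, at −0.50, and was not called. The 5 endothelial markers were mixed, with Clec4g (−1.20 ± 0.11) and Kdr lower and Lyve1 (1.56 ± 0.23) higher, and their sum was 208 to 313 CPM on chow, 162 to 277 CPM on WTD and 199 to 293 CPM with atorvastatin. Of 5 lymphocyte markers edgeR called 0 in each of the 3 comparisons, with 0 at an unadjusted p under 0.05. In bulk liver, fewer hepatocytes and less RNA of an enzyme per hepatocyte cannot be told apart. Their part in the changes of the enzymes was not tested. The rescaling that follows cannot tell them apart either, since the hepatocyte markers it uses were themselves lower on WTD.

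Libraries were also scaled to the median ratio of the hepatocyte markers, a setting added after the data were seen. This moved the median log2 fold change of all genes on WTD against chow from 0.03 to 0.91, and that of the enzymes to −0.10. On this scale Cyp8b1 was still lower on WTD, at −1.37 (adjusted p = 3.40e-05), and so was Akr1d1 at −0.56 (adjusted p = 2.38e-05). Cyp7a1 was at −0.67 (adjusted p = 0.015). Cyp27a1 (−0.05), Slc27a5 (−0.10), Baat (−0.10) and Cyp7b1 (−0.18) did not pass the test, Amacr turned to 0.18 (adjusted p = 0.088) and Cyp2c70 turned to 0.64 and was called higher (adjusted p = 1.72e-08). On this scale 1.7% of all genes tested were called lower and 65.6% higher. The scale takes the median marker as its reference and leaves out the spread of the markers. On the TMM scale the fall of Akr1d1 (−1.41 ± 0.16) was close to those of Ttr (−1.29 ± 0.10) and Apoa2 (−1.22 ± 0.12), so its rescaled value does not set Akr1d1 apart from single markers.

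On the same scale, 1 of the 7 rises with atorvastatin was called, that of Akr1d1 at 0.39 (adjusted p = 0.00598), where 0.751% of all genes were called higher and 7.28% lower, and the median of all genes moved from 0.00 to −0.26. Cyp8b1 was at 0.67 (adjusted p = 0.051), Cyp7a1 at 0.44 (adjusted p = 0.16) and Slc27a5 at 0.27 (adjusted p = 0.021). Cyp27a1 (0.03), Amacr (0.01), Baat (0.01) and Cyp2c70 (0.06) were close to 0, and Cyp7b1 turned to −0.02.

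**Figure D5:**
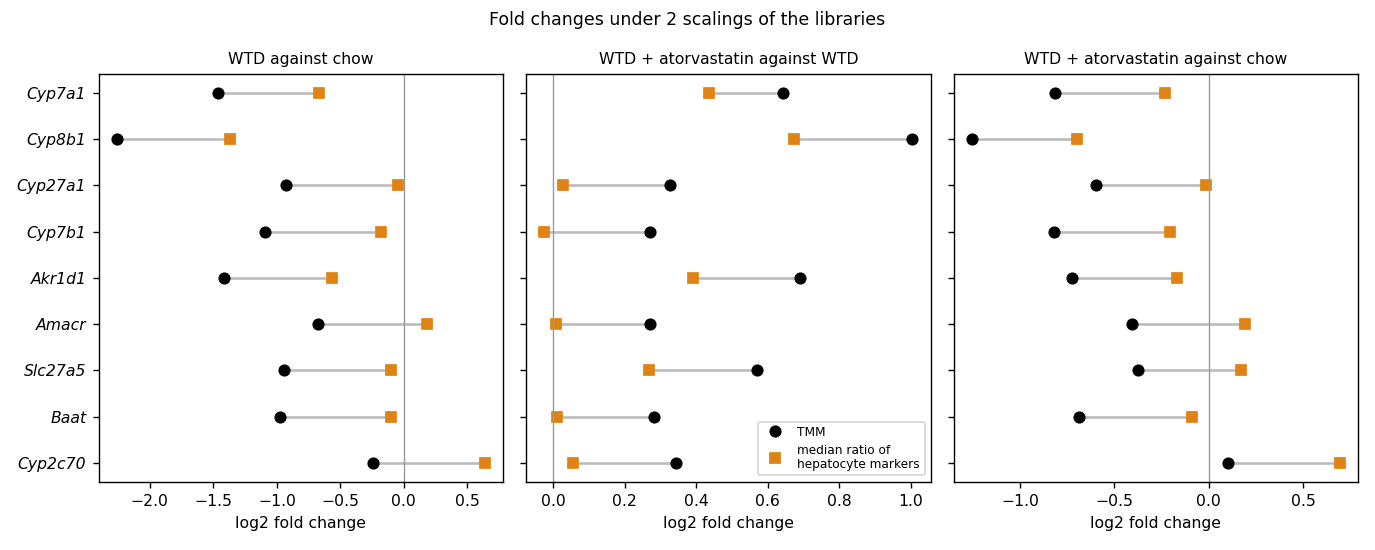
Log2 fold change of the 9 enzymes in the 3 comparisons with TMM scaling (circles) and with libraries scaled to the median ratio of hepatocyte markers (squares). On WTD against chow Cyp8b1 stays at −1.37 and Akr1d1 at −0.56 after rescaling, while Cyp27a1 moves to −0.05 and Cyp2c70 to 0.64.

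The count of 7 enzymes raised by atorvastatin depended on single mice and settings more than the 8 falls on WTD did. Akr1d1, Slc27a5, Baat and Cyp2c70 were called with any 1 mouse left out. The count became 8 without Gen#20, and 4 without Gen#11, Gen#27, Gen#35 or Gen#37. It was 1, Cyp2c70, without the 8 libraries that lacked weak genes, where Akr1d1 was at 0.61 (adjusted p = 0.017), Slc27a5 at 0.53 (adjusted p = 0.018) and Baat at 0.25 (adjusted p = 0.022). It was 6 with DESeq2 and 8 with limma-voom and sample weights, 7 with the first principal component of the clock genes as a covariate, and 2 when libraries were scaled by size only. In the fits with 1 mouse left out, the 8 falls on WTD were called each time, and 6 to 7 enzymes were called lower in treated mice than on chow. The number of all genes called also moved with these settings. For treated mice against WTD it was 1106 in the main fit and 1575 without Gen#20. It was 913 to 1575 with 1 mouse left out and 100 to 5076 over the other ways of processing. With 1 mouse left out, 4952 to 5384 genes were called for WTD against chow and 3651 to 4101 for treated mice against chow.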

How the data were processed

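Liver RNA of 42 mice was sequenced as paired reads. Per the labels and the study's methods, the authors trimmed reads with Trimmomatic, aligned them to GRCm38 with STAR 2.5 and counted read pairs per gene of GENCODE vM19 with HTSeq 0.6.1p1, and the deposited values are raw counts. The strand setting of the counting is not given in the sources used here. The merged table was used, and each of its 42 columns equalled the matching single-sample file. Symbols came from GENCODE vM21 and matched 54409 of 54446 ids. All columns were used.

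Genes were filtered with filterByExpr of edgeR 4.0.16 (minimum count 10, minimum total 15, leaving 15574), scaled by TMM and fitted in R 4.3.3 with 3 groups, robust quasi-likelihood dispersion and no covariate. A call needed an adjusted p under 0.01. The fit was tested on simulated data. Groups came from the labels, and p-values cover the spread between mice. Log2 ratios of counts (pseudocount 0.5) and correlations were tested by two-sided permutation in SciPy 1.17.1, with Benjamini-Hochberg adjustment over 12 and 18 tests. For these the threshold was an adjusted p under 0.05. Alternatives included DESeq2 1.42.0, limma 3.58.1, other scalings, filters and thresholds, and leaving out each mouse. Scaling to the median ratio of hepatocyte markers and by library size only were added after the data were seen.

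All 10 enzymes and 12 regulators are named, and of each other list the 2 genes with the smallest p in a comparison. Trf, Kdr, Acta2, Clec4f, and Apoa2 and Scp2 on WTD were named after their values were seen. So were Hsd3b7's neighbour genes, Per3 and Podn. The enzymes and lists were chosen with earlier results of these data known. No 2 libraries agreed within sampling noise. Sequences were read from RefSeq promoters on GRCm38.p6.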

Additional observations from a re-analysis of the deposited data

How the results depend on the processing

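The falls of Cyp8b1 and Akr1d1 on WTD were called in all 17 alternatives and with any 1 mouse left out. With 1 mouse left out, the enzymes called numbered 8 for WTD against chow, 4 to 8 for treated mice against WTD and 6 to 7 for treated mice against chow, among 4952 to 5384, 913 to 1575 and 3651 to 4101 genes called. Scaling to the summed hepatocyte markers called 3, 0 and 4 enzymes among 10448, 5076 and 5954 genes, and scaling to their median ratio called 3, 1 and 1 enzymes among 10476, 1251 and 8181 genes. In both scalings the median of all genes moved by over 0.1, and Amacr (0.18) and Cyp2c70 (0.64) turned in direction on WTD. For Cyp2c70 this was also so with library size only (0.069). For treated mice against WTD, the summed markers turned Cyp27a1 (−0.15), Cyp7b1 (−0.20), Amacr (−0.18), Baat (−0.18) and Cyp2c70 (−0.13), and the median ratio turned Cyp7b1 (−0.024). For treated mice against chow, Amacr turned to 0.0058 and 0.19, and Slc27a5 to 0.17 with the median ratio. The rises with atorvastatin numbered 4 with RLE scaling, 4 with only the 2 groups fitted, 2 with library size only and 1 without the 8 libraries that lacked weak genes. With a log2 fold change of at least 1 also required, 4, 1 and 1 enzymes and 2151, 100 and 1288 genes were called. For treated mice against WTD, limma-voom called 3145 genes and an adjusted p under 0.05 called 2021, against 1106. Of these 1106 calls 68.2% were higher, against 54.9% with RLE, 50.9% with DESeq2, 60.0% with upper-quartile scaling, 58.3% with limma, 24.4% with library size only, and 1.32% and 9.35% with the summed and median-ratio hepatocyte scalings. For WTD and treated mice against chow the share was 52.2% and 57.0%, against 82.4% and 76.7% with library size only, 97.5% and 95.1% with the summed and 97.5% and 98.0% with the median-ratio scaling. Without the same 8 libraries the ratio of Cyp8b1 to Cyp7a1 between treated mice and WTD turned from 0.17 to −0.24. On WTD against chow Cyp8b1 to Cyp7b1 was −0.87 and did not pass at 0.05, and Cyp7a1 to Cyp27a1 was −0.86 and passed at 0.05. Without the 2 mice farthest from the median, the r of Cyp8b1 with Cyp7b1 in treated mice went from −0.00 to 0.59 (permutation adjusted p = 0.25). The cause of these changes was not tested. No paired analysis was possible because the replicate numbers name different animals in each group.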

Other observations

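Enzymes that modify finished bile acids also differed between groups. All 3 measured were lower on WTD than on chow, where 16.0% of all genes were called lower. The sulfotransferase Sult2a8 fell by 3.43 ± 0.34 on the log2 scale (edgeR adjusted p = 4.32e-11), more than any of the synthesis enzymes, and the hydroxylase Cyp2a12 by 0.92 ± 0.09 (edgeR adjusted p = 1.37e-12). With atorvastatin Sult2a8 was 1.31 ± 0.30 higher (edgeR adjusted p = 0.0020) and Cyp2a12 0.44 ± 0.08 higher (edgeR adjusted p = 0.00011) than on WTD, and 2 of 3 were called, where 4.84% of all genes were called higher. Against chow all 3 were lower in treated mice, with Sult2a8 at −2.12 ± 0.33 and Cyp3a11 at −0.75 ± 0.09, where 10.7% of all genes were called lower. The 3 electron donors of the P450 enzymes were lower on WTD, among them Fdx1 (−0.75 ± 0.09) and Fdxr (−0.58 ± 0.11). With atorvastatin 0 of 3 were called by edgeR at an adjusted p under 0.01, with 2 at an unadjusted p under 0.05 (Por 0.29, adjusted p = 0.17; Fdxr 0.19, adjusted p = 0.20), and 2 of 3, Fdx1 (−0.63 ± 0.09) and Fdxr (−0.39 ± 0.11), were lower in treated mice than on chow.

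Of 15 tested clock genes, 2 were higher and 3 lower on WTD, close to the 33.5% of all genes called, among them Nfil3 (−1.54 ± 0.22) and Clock (−0.66 ± 0.12). Between treated mice and WTD edgeR called 0 of 15, with 4 at an unadjusted p under 0.05, and Cry2 was at 0.41 (edgeR adjusted p = 0.074) and Hlf at 0.45 (edgeR adjusted p = 0.079). Against chow 3 were higher and 2 lower in treated mice, where 25.0% of all genes were called, among the lower Nfil3 (−1.44 ± 0.22) and Clock (−0.55 ± 0.12).

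Among the markers of other cells, treated mice against WTD had 1 macrophage marker higher, Clec4f at 0.62, and 3 lower. The lower ones included Lyz2 (−0.99 ± 0.12) and Cd68 (−0.56 ± 0.10). Of all genes, 4.84% were called higher and 2.26% lower in this comparison. Of the stellate cell markers 3 were lower, among them Lum (−1.36 ± 0.22) and Col1a2 (−0.77 ± 0.17), and of the cholangiocyte markers 1 was lower, Spp1 (−0.79 ± 0.16), with Epcam at −0.51 (edgeR adjusted p = 0.047). The endothelial markers Clec4g (0.59 ± 0.10) and Kdr (0.46 ± 0.11) were higher. In treated mice against chow 7 macrophage markers were higher, among them Cd5l (2.73 ± 0.11) and Csf1r (1.62 ± 0.09), 6 stellate cell markers, among them Col3a1 (2.30 ± 0.19) and Col1a2 (2.66 ± 0.22), and 4 cholangiocyte markers, among them Spp1 (1.68 ± 0.20) and Epcam (1.56 ± 0.22). Of all genes, 14.2% were called higher and 10.7% lower in that comparison. Of the endothelial markers Lyve1 (1.34 ± 0.23) and 1 other were higher and Clec4g (−0.62 ± 0.11) was lower. The lymphocyte markers with the smallest p were Cd79a (−1.01 ± 0.60) and Nkg7 (0.83 ± 0.56) on WTD against chow, Cd79a (0.51 ± 0.53) and Cd3g (−0.45 ± 0.51) with atorvastatin against WTD, and Nkg7 (0.61 ± 0.55) and Cd3e (0.64 ± 0.59) in treated mice against chow, none of which was called by edgeR.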
